A study of Mus musculus with 7 samples.

Results

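The acute phase and plasma protein genes of the liver were compared between Sprtn knock-in and wild-type mice. The set held 33 genes, matched by exact symbol in the deposited table of 51826 genes, and all 33 were found and passed the filter on low counts. They were divided by role into 21 secreted proteins that rise in the acute phase, 3 that fall in it (the negative acute phase genes), 3 constitutive relatives, and 6 intracellular or signalling genes. The knock-in group held 4 male C57BL/6J mice homozygous for Sprtn Y118C, and the wild-type group held 3 male C57BL/6J mice. All were 6 months old, and the labels give no treatment. Sprtn is the protease that clears DNA of proteins bound to it by crosslinks. Polyadenylated RNA of whole liver was sequenced in 1 library per mouse. No source used here says whether the groups were littermates.

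The acute phase response is the change in plasma proteins that follows infection or tissue injury. Interleukin-6 binds its receptor on hepatocytes and activates the transcription factor STAT3, while interleukin-1 and tumour necrosis factor act through NF-kappaB, and C/EBP factors take part in both. Hepatocytes then make more serum amyloid A, orosomucoid, haptoglobin, fibrinogen and other secreted proteins, and less albumin and transthyretin. In the mouse the strongest responders are serum amyloid A and serum amyloid P (Apcs), and C-reactive protein responds little, unlike in humans.

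Total counts ran from 36928472 to 46755357 per library. Values below are CPM on library sizes scaled by the trimmed mean of M values, unless named otherwise. Sprtn itself had 10.3 to 12.2 CPM in the knock-in and 9.15 to 11.3 CPM in wild type, which does not check the genotype, since the knock-in replaces 1 amino acid. Some libraries stood apart. Wild-type replicate 1 had a summed level of 10 pericentral hepatocyte markers of 12040 CPM, above the knock-in libraries at 9826 to 11232 CPM. Wild-type replicates 2 and 3 had 5998 and 6267 CPM, below all other libraries. Most of the sum in wild-type replicate 1 was Cyp2e1, at 7219 CPM. Cyp2e1, Cyp2c29 and Lgr5 were higher there than in every knock-in library, and Glul and Rhbg were lower. The other markers lay within the knock-in range. Knock-in replicate 1 held skeletal muscle transcripts, with 76.5 CPM summed over 8 markers against 0.472 to 1.20 CPM in the other libraries. Hepatocyte markers were detected in every library, in 7 of 7 genes. In bulk tissue, fewer cells of a type and less RNA per cell cannot be told apart.

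C/EBP and STAT3 are known to act at promoters of acute phase genes. Promoter windows are shown for the serum amyloid pair, for the 4 members with the smallest p, and for both metallothioneins, whose levels varied most. Each is the 250 bases before the RefSeq transcription start (build GRCm38.p6), 5′ to 3′ on the gene's strand. Capitals mark matches to the C/EBP-type motif TTNNGNAA on either strand in the 6 acute phase genes, and matches to the metal response motifs TGCACNC and TGCGCNC in Mt1 and Mt2. The metallothionein windows were added after their values were seen.
Saa1, chr7:46742981-46743230, minus strand: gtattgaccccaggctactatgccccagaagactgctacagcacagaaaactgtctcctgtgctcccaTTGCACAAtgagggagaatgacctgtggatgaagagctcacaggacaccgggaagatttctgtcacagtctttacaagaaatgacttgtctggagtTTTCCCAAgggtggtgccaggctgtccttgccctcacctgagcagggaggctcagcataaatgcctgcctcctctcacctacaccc
Saa2, chr7:46751583-46751832, plus strand: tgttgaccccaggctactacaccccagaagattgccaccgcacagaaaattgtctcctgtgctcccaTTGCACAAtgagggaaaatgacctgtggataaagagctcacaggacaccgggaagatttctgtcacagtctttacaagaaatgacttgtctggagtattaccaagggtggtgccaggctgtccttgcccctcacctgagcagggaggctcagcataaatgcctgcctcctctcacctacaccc
Lcn2, chr2:32387740-32387989, minus strand: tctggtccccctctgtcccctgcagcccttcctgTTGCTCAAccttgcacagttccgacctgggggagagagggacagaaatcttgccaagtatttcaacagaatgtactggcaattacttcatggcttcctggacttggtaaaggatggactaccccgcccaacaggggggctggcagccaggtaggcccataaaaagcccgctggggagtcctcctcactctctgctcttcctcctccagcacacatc
Serpina3n, chr12:104406458-104406707, plus strand: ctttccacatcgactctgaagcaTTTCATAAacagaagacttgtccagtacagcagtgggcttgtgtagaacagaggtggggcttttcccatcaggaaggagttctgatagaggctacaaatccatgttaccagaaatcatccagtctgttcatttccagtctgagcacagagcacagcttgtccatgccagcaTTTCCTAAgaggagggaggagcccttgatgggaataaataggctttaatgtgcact
Orm2, chr4:63362199-63362448, plus strand: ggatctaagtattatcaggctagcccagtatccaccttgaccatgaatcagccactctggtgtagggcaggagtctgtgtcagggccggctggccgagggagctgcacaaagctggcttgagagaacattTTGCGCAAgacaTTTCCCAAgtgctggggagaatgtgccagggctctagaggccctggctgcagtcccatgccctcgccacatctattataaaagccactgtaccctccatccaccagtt
Crp, chr1:172697806-172698055, plus strand: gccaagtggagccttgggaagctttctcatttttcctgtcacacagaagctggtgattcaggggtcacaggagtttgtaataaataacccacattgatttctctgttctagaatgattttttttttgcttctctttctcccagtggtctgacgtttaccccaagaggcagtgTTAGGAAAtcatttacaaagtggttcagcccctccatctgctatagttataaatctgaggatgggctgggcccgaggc
Mt1, chr8:94178839-94179088, plus strand: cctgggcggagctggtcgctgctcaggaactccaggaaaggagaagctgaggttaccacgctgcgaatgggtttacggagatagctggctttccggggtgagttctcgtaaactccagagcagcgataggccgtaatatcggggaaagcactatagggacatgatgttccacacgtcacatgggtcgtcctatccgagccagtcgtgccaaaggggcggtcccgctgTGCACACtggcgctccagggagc
Mt2, chr8:94172368-94172617, plus strand: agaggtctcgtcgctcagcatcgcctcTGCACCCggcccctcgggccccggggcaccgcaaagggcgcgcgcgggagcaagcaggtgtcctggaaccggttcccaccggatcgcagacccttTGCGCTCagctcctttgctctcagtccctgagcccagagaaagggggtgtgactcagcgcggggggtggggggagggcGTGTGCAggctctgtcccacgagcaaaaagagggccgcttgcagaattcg
The windows of Saa1 and Saa2, which lie on opposite strands of chromosome 7, shared 94.8% of 251 aligned positions. Both held a C/EBP-type match, at -182 to -175 in Saa1 and at -183 to -176 in Saa2, and Saa1 held another at -86 to -79, where the Saa2 window had none. Windows were listed for 28 of the 33 members. A C/EBP-type match stood in 22 of these (78.6%), against 40.3% of 27025 genes with a listed window. The STAT3-type motif TTCNNNGAA stood in 6 (21.4%), those of Apcs, Fga, Fgb, Itih4, Socs3 and Steap4, against 8.13% of all genes. The shorter motif CTGGGAA stood in 5 (17.9%), those of Apcs, Fgb, Fgg, Il1rn and Steap4, against 10.4% of all genes. No window shown above held the STAT3-type motif or this shorter one. The NF-kappaB consensus stood in 1, that of Steap4, against 8.23% of all genes. TGCACNC stood in 3 member windows (10.7%), against 11.8% of all genes, and TGCGCNC in 3, against 14% of all genes. Motifs may overlap each other, and a gene with several listed starts was counted if any window matched. The matches depend on the start site used, and bases outside the windows were not searched. Several windows did not end at the start of the deposited gene. For Mt2 the window ends at 94172617, before the start of the deposited gene at 94172664, and for Serpina3n at 104406707, before 104406729. The Lcn2 window lies inside the deposited gene, which on the minus strand starts at 32388252. The Saa2 window ends at 46751832 and the Mt1 window at 94179088, past the deposited starts at 46751790 and 94179082. A match is a run of letters, and no binding was measured here.

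No member passed the edgeR test over all genes. Of the 21 secreted positive members 9 had positive and 12 had negative log2 differences, with a median of -0.06. All knock-in libraries lay above all wild-type libraries for 3 members, Lcn2, Serpina3n and Orm2, and below them for 1, Crp, where 5.48% and 5.46% of all tested genes did so. Lcn2, which encodes the siderophore-binding protein lipocalin 2, averaged 16.4 ± 8.64 CPM in the knock-in and 4.83 ± 1.44 CPM in wild type (SD, n = 4 and 3). Saa1, Saa2 and Orm3 had log2 differences from 0.86 to 1.64, with overlapping groups, while Saa3 had -0.57. The fibrinogen chains, hemopexin and albumin had negative ones, from -0.35 to -0.14.

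The edgeR quasi-likelihood test called 0 of the 33 members at an adjusted p under 0.05, where 0.0357% of 13989 tested genes were called (5 genes). At an unadjusted p under 0.05 there were 7 members (21.2%), against 10.6% of all genes. Of these, 5 were higher (15.2%, against 5.6% of all genes), namely Lcn2, Serpina3n, Orm2, Orm3 and Saa1. Another 2 were lower (6.06%, against 4.97% of all genes), namely Crp and Itih2. The CPM ranges of the groups did not overlap for 4 members (12.1%), against 10.9% of all genes, and this share lay near the background. DESeq2 called 1 member, Lcn2, where it called 1.36% of the genes with an adjusted p, and limma-voom called 0. The authors' deposited table held 2 members at a corrected p under 0.05, Lcn2 and Orm2, where it held 0.633% of its genes. Of the 33 members 13 had positive and 20 had negative log2 differences, with a median of -0.14, beside a median of 0.0007 over all tested genes.

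**Figure D1:**
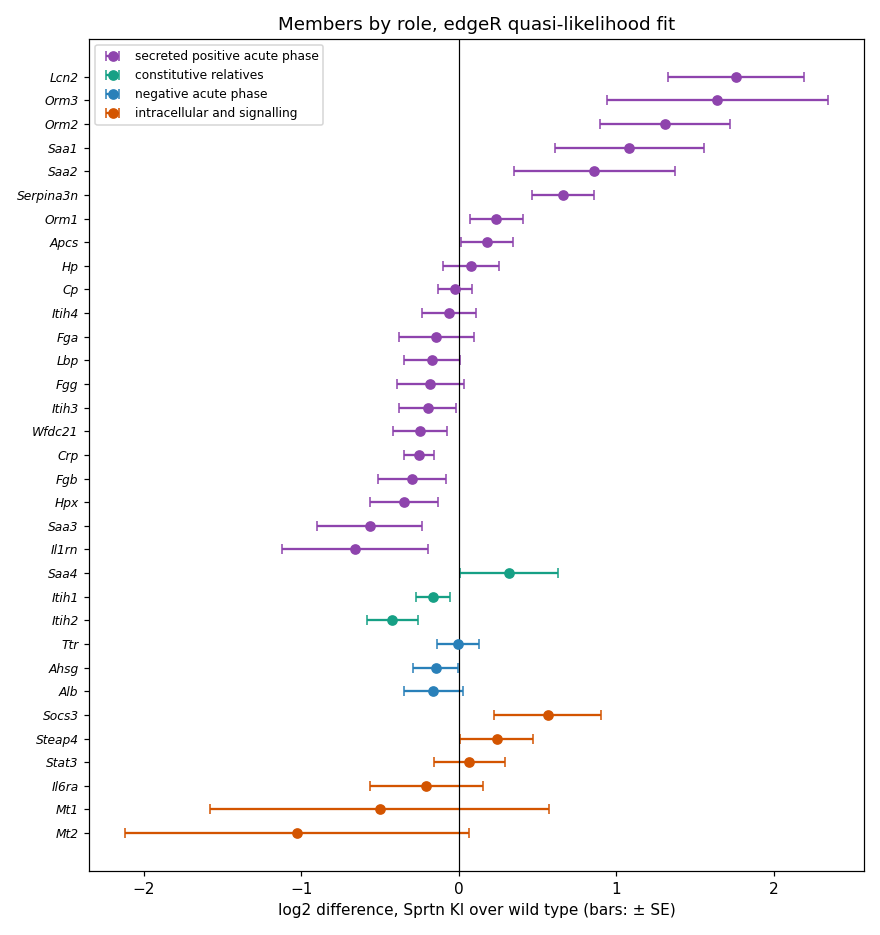
Log2 difference of Sprtn knock-in over wild type (x axis) for each of the 33 members (rows), with bars of ± SE and colours by role. Differences run from 1.76 for Lcn2 to -1.03 for Mt2, and 0 members passed the edgeR test.

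Lipocalin 2 is made by hepatocytes in the acute phase and by neutrophils, and it withholds iron from bacteria. Lcn2 (ENSMUSG00000026822, chromosome 2, 32384633 to 32388252, minus strand, mm10) had 23.7, 23.9, 9.17 and 8.59 CPM in knock-in replicates 1 to 4, against 3.17, 5.72 and 5.59 CPM in wild-type replicates 1 to 3. Every knock-in library lay above every wild-type library, and knock-in replicates 1 and 2 lay well above replicates 3 and 4. This gave a log2 difference of 1.76 (SE 0.43, edgeR adjusted p = 0.257, unadjusted p = 0.00316). DESeq2 gave the same size, 1.76, with an adjusted p of 0.0015, and in that test Lcn2 rose. The authors' deposited table gave 1.76 with a corrected p of 1.3e-05. Over the other settings tried the edgeR adjusted p ran from 0.183 to 0.723, and no library decided the direction.

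Neutrophil markers were set beside Lcn2, since neutrophils carry its mRNA. Of 12 markers 6 passed the filter on low counts, and all 6 of those had positive log2 differences. Their ranges overlapped between the groups, and edgeR, DESeq2 and limma-voom called 0. At an unadjusted edgeR p under 0.05 there was 1 higher, Retnlg, where 5.6% of all genes were. Retnlg had 26, 13, 30 and 7 counts in the knock-in and 7, 6 and 7 in wild type. It passed the filter through its knock-in counts. Among the markers that did not pass, DESeq2 log2 differences were negative for Mmp8, Camp and Mpo and positive for Ngp, Ltf and Elane. The granule genes Elane, Mpo and Camp had between 0 and 8 counts in every library. In knock-in replicates 1 to 4 the sums over all 12 markers were 10.8, 7.21, 9.61 and 4.35 CPM, and in wild-type replicates 1 to 3 they were 5.50, 8.21 and 3.93 CPM. The part of neutrophils in the Lcn2 difference was not tested.

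Orosomucoids, or alpha-1-acid glycoproteins, carry drugs and lipids in plasma and dampen inflammation. Orm2 (ENSMUSG00000061540, chromosome 4, 63362449 to 63365878, plus strand) had 40.9, 13.2, 41.5 and 16.5 CPM in knock-in replicates 1 to 4, against 11.9, 9.19 and 12.9 CPM in wild type. The groups did not overlap, but knock-in replicate 2 exceeded the highest wild-type library only slightly, and replicates 1 and 3 carried most of the difference. Knock-in over wild type, the log2 difference stood at 1.31 (SE 0.41, edgeR adjusted p = 0.346), and the authors' deposited table gave 1.30 with a corrected p of 0.00721. Orm3, a scarce family member, had 3.80, 1.42, 2.86 and 1.58 CPM in the knock-in and 1.76, 0.125 and 0.437 CPM in wild type, so that wild-type replicate 1 lay inside the knock-in range. On the log2 scale the difference was 1.64 (SE 0.70, edgeR adjusted p = 0.468), and it ran from 1.15 without wild-type replicate 2 (edgeR adjusted p = 0.862) to 3.05 without wild-type replicate 1 (edgeR adjusted p = 0.0802).

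Orm1, the abundant member of the family, had 775, 536, 846 and 574 CPM in the knock-in, against 629.6, 575 and 532 CPM in wild type. The groups overlapped, and replicates 1 and 3 were again the highest knock-in libraries. The log2 difference came to 0.24 (SE 0.17, edgeR adjusted p = 0.634). Within a library, Orm1 counts were 19.0 to 40.6 times those of Orm2 in the knock-in and 41.2 to 62.6 times in wild type. The transcripts of Orm1 and Orm2 were 91% identical, and 6.95% of the 100-base windows of Orm1 stood unchanged in Orm2. No source used here says how the authors assigned reads that match both. Since Orm1 counts far exceeded those of Orm2, a small share of Orm1 reads could make up much of the Orm2 counts. The Orm2 difference is uncertain for that reason. Orm1 and Orm3 transcripts were 86.4% identical, with 0% of the 100-base windows of Orm1 unchanged in Orm3. Shorter stretches can match both, so the few Orm3 counts are uncertain too.

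Serpina3n, a secreted inhibitor of serine proteases and a STAT3-responsive gene, also lay above wild type. The gene (ENSMUSG00000021091, chromosome 12, 104406729 to 104414329, plus strand) had 406, 581, 361 and 329 CPM in the knock-in, against 259.9, 302 and 234 CPM in wild type. All knock-in libraries lay above all wild-type libraries, with replicate 2 the highest in each group. On the log2 scale the knock-in differed by 0.66, or 1.58-fold (SE 0.20 on the log2 scale, edgeR adjusted p = 0.331), and DESeq2 gave an adjusted p of 0.057. Serpina3n belongs to a cluster of similar genes on chromosome 12, which makes its counts uncertain where reads match several of them.

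Serum amyloid A proteins are lipoprotein-bound acute phase reactants. Saa1 (ENSMUSG00000074115, chromosome 7, 46740497 to 46742980, minus strand) had 400.5, 285, 242 and 89.0 CPM in the knock-in and 66.3, 163 and 131 CPM in wild type. Knock-in replicates 1, 2 and 3 lay above every wild-type library, and replicate 4 lay inside the wild-type range. This gave a log2 difference of 1.08 (SE 0.47, edgeR adjusted p = 0.472). Saa2 (chromosome 7, 46751790 to 46754313, plus strand) had 154, 120.4, 88.9 and 53.5 CPM in the knock-in and 17.6, 76.1 and 78.5 CPM in wild type, with the same order of the 4 knock-in libraries. Knock-in over wild type, the log2 difference stood at 0.86 (SE 0.51, edgeR adjusted p = 0.57). For both genes wild-type replicate 1 was the lowest library of all 7, and without it the log2 differences were 0.79 for Saa1 and 0.43 for Saa2. Over all libraries left out in turn they ran from 0.78 to 1.37 for Saa1 and from 0.43 to 1.15 for Saa2.

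Saa1 and Saa2 transcripts were 93.5% identical over 612 aligned bases, but 0% of the 100-base windows of Saa1 stood unchanged in Saa2. Shorter stretches can match both, and no source used here says how the authors assigned such reads. The Saa1 and Saa2 counts are uncertain to that extent. The ratio of Saa1 to Saa2 counts was 1.66 to 2.73 in the knock-in and 1.67 to 3.78 in wild type. Saa3, which macrophages and fat cells make, had 10.5, 7.42, 11.3 and 9.18 CPM in the knock-in and 6.93, 13.2 and 22.5 CPM in wild type. On the log2 scale the difference was -0.57 (SE 0.33, edgeR adjusted p = 0.569), and it ran from -0.89 without wild-type replicate 1 to -0.07 without wild-type replicate 3, which held the highest value. Saa4, the constitutive form of the family, had 380.2, 698, 288 and 305 CPM in the knock-in and 422, 306 and 276 CPM in wild type. Its log2 difference of 0.32 (edgeR adjusted p = 0.736) became -0.04 without knock-in replicate 2.

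**Figure D2:**
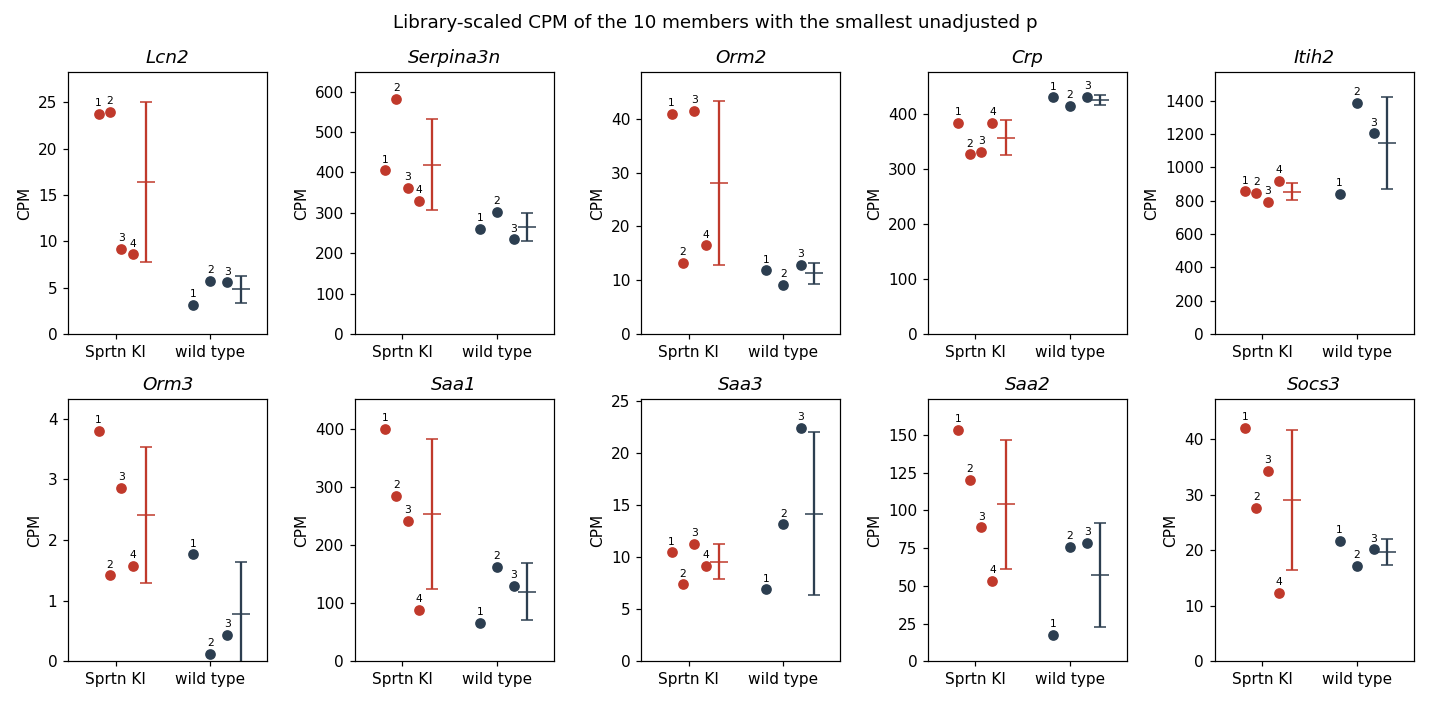
Library-scaled CPM (y axis, from 0) of the 10 members with the smallest unadjusted p, with 4 Sprtn knock-in libraries left and 3 wild-type libraries right in each panel. Numbers are replicates, and the dash with its bar is the mean ± SD, cut at 0 for Orm3 in wild type; Lcn2, Serpina3n and Orm2 have no overlap above wild type and Crp has none below it.

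Crp (ENSMUSG00000037942, chromosome 1, 172698055 to 172833031, plus strand), the gene of the pentraxin that binds phosphocholine on microbes, lay below wild type in every knock-in library. It had 384, 327, 331 and 385 CPM in the knock-in, against 430.5, 415 and 431 CPM in wild type. The groups did not overlap, and the wild-type libraries lay close together, with a coefficient of variation of 2.14%. On the log2 scale the knock-in differed by -0.25, or 0.838-fold (SE 0.09 on the log2 scale, edgeR adjusted p = 0.392, DESeq2 adjusted p = 0.258). Apcs, the gene of the related pentraxin serum amyloid P, had 81.9, 71.1, 73.2 and 87.2 CPM in the knock-in, against 49.8, 80.5 and 77.4 CPM in wild type. Those ranges overlapped, and the log2 difference of 0.18 (edgeR adjusted p = 0.721) was -0.01 without wild-type replicate 1.

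Fibrinogen is the clotting protein built from the products of Fga, Fgb and Fgg, neighbouring genes on chromosome 3. Fgb had 4053, 4091, 3841 and 4397 CPM in the knock-in, against 3204, 6487 and 5390.3 CPM in wild type. Fga had 4287, 5160.3, 3937 and 4442 CPM in the knock-in, against 2998, 6234 and 5537 CPM in wild type. Fgg had 3642, 3526, 3298 and 3981 CPM in the knock-in, against 2633, 5159.6 and 4491 CPM in wild type. In all 3 genes wild-type replicate 1 was the lowest library and wild-type replicates 2 and 3 were above every knock-in library. The log2 differences were -0.30 for Fgb, -0.14 for Fga and -0.18 for Fgg (edgeR adjusted p = 0.644, 0.857 and 0.786). Without wild-type replicate 1 they were -0.54, -0.40 and -0.42, and without wild-type replicate 2 they were -0.07, 0.06 and 0.02.

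Hemopexin, which binds free haem, followed the fibrinogen genes across the wild-type libraries. Hpx had 4178, 3136, 3996 and 3224 CPM in the knock-in, against 3195, 5970.5 and 4728 CPM in wild type, with a log2 difference of -0.35 (SE 0.215, edgeR adjusted p = 0.582). It was -0.56 without wild-type replicate 1 and -0.13 without wild-type replicate 2. Itih2, a heavy chain of the inter-alpha-trypsin inhibitor that stabilises hyaluronan, had 856, 847, 795.5 and 922 CPM in the knock-in, against 844, 1386 and 1205 CPM in wild type. The log2 difference came to -0.42 (SE 0.16, edgeR adjusted p = 0.404), and ran from -0.60 without wild-type replicate 1 (edgeR adjusted p = 0.0588) to -0.26 without wild-type replicate 2 (edgeR adjusted p = 0.876). Of 10 pericentral markers all 10 had positive log2 differences and of 10 periportal markers all 10 had negative ones, with 0 called by edgeR and limma-voom in either list. At an unadjusted edgeR p under 0.05 there were 3 pericentral markers higher, where 5.6% of all genes were, and 5 periportal markers lower, where 4.97% were. DESeq2 called 2 pericentral markers higher, Glul and Rhbg, and 3 periportal markers lower, Sds, Gls2 and Hsd17b13, where it called 1.36% of its genes. The pericentral sum was highest in wild-type replicate 1, as given above. The 10 periportal markers summed to 10578 to 12950.4 CPM in the knock-in, to 13756 CPM in wild-type replicate 1, and to 17289.6 and 13432 CPM in wild-type replicates 2 and 3. The part of lobule zone in these values was not tested.

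**Figure D3:**
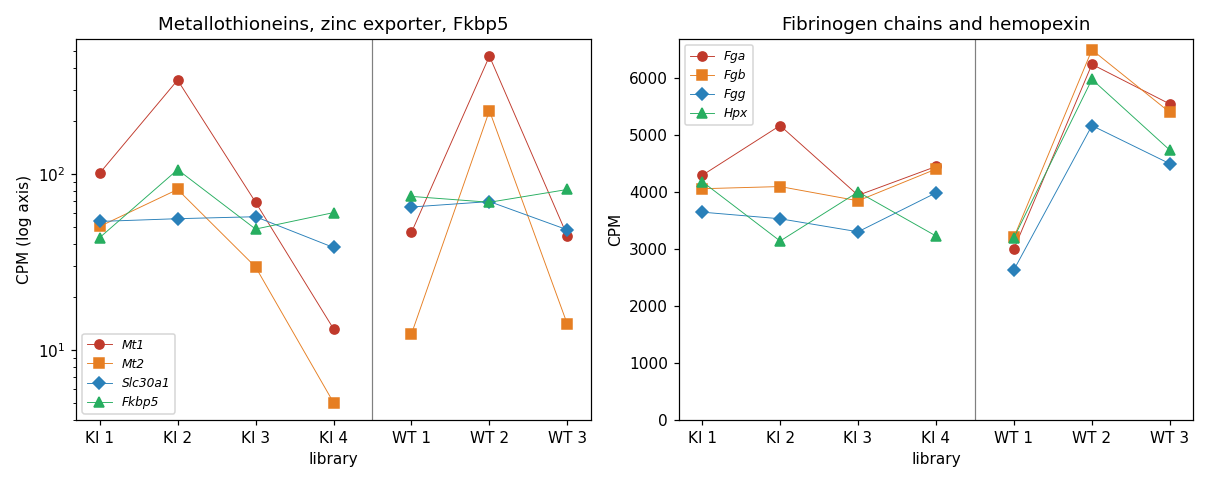
CPM per library (x axis, knock-in left, wild type right), on a log axis for Mt1, Mt2, Slc30a1 and Fkbp5 (left panel) and from 0 for Fga, Fgb, Fgg and Hpx (right panel). Mt1 and Mt2 peak in knock-in replicate 2 and wild-type replicate 2, and the fibrinogen chains are lowest in wild-type replicate 1.

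Of the remaining secreted members, haptoglobin, which clears free haemoglobin, had a log2 difference of 0.08 for Hp (SE 0.18), and ceruloplasmin, the copper-carrying ferroxidase, had -0.03 for Cp (SE 0.11). The inter-alpha-trypsin inhibitor chains Itih1, Itih3 and Itih4 had -0.16, -0.20 and -0.06. Lbp, which delivers lipopolysaccharide to CD14, had -0.17 with an SE of 0.18. Wfdc21 had 490.4, 349.9, 476 and 469 CPM in the knock-in, against 652, 514 and 419 CPM in wild type, with a log2 difference of -0.24 and an SE of 0.17. Il1rn, the secreted antagonist of the interleukin-1 receptor, had 3.60, 1.81, 3.52 and 1.55 CPM in the knock-in and 1.81, 7.04 and 3.62 CPM in wild type. Its log2 difference of -0.66 had an SE of 0.46 and ran from -1.02 without wild-type replicate 1 to -0.05 without wild-type replicate 2. The edgeR adjusted p of these 8 genes ran from 0.611 to 0.952.

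Macrophage markers stood beside Saa3 and Il1rn, both of which macrophages express. Of 12 Kupffer cell and macrophage markers 11 had negative log2 differences. In edgeR and limma-voom 1 was called lower, Timd4, where edgeR called 0.0357% of all genes. DESeq2 called 6 lower, where it called 1.36% of its genes in either direction. At an unadjusted edgeR p under 0.05 there were 7 lower, where 4.97% of all genes were. All knock-in libraries lay below all wild-type libraries for 6, where 5.46% of all genes did so. The summed level of the 12 markers was 372 to 483 CPM in the knock-in and 445 to 564 CPM in wild type. The part of macrophages in the Saa3 and Il1rn values was not tested.

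The 3 negative acute phase genes had log2 differences below 0, and the groups overlapped in each. Albumin, the main carrier protein of plasma, took 3.78, 5.26, 4.25 and 5.44% of all counts in the knock-in and 4.97, 5.70 and 5.04% in wild type. The groups overlapped, with knock-in replicates 1 and 3 the lowest. This gave a log2 difference of -0.16 (SE 0.19, edgeR adjusted p = 0.782). Ttr, the gene of the thyroxine and retinol carrier transthyretin, had 4988, 4649.95, 5257 and 6125 CPM in the knock-in and 5537, 5428 and 4859 CPM in wild type, with a log2 difference of -0.01 and an SE of 0.14. Ahsg, which encodes fetuin-A, an inhibitor of mineral deposition, had 6329, 6454, 6736 and 6644 CPM in the knock-in, against 6055, 8438 and 7244 CPM in wild type. Knock-in over wild type, the log2 difference stood at -0.15 (SE 0.14, edgeR adjusted p = 0.733).

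The signalling genes that turn the response on and off were next compared. Socs3, the STAT3-induced inhibitor that limits interleukin-6 signalling, had 42.0, 27.6, 34.2 and 12.3 CPM in the knock-in, against 21.7, 17.2 and 20.1 CPM in wild type. Knock-in replicates 1, 2 and 3 lay above the wild-type range and replicate 4 below it, as the lowest of all. On the log2 scale the difference was 0.56 (SE 0.34, edgeR adjusted p = 0.577), and it ran from 0.33 to 0.82 with 1 library left out, the highest without knock-in replicate 4. Stat3 had 148, 148, 111 and 89.6 CPM in the knock-in and 89.6, 155 and 111 CPM in wild type, with a log2 difference of 0.07 (SE 0.22). Il6ra, the ligand-binding chain of the interleukin-6 receptor, had 47.6, 84.5, 48.1 and 27.9 CPM in the knock-in and 70.7, 73.0 and 36.4 CPM in wild type, with a log2 difference of -0.21 (SE 0.36). Steap4, an inducible metalloreductase, had a log2 difference of 0.24 (SE 0.23). The edgeR adjusted p of Stat3, Il6ra and Steap4 was 0.939, 0.865 and 0.738.

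Metallothioneins bind zinc and copper and are induced by metals, glucocorticoids and interleukin-6. Mt1 had 101, 341, 68.9 and 13.2 CPM in the knock-in and 46.4, 466 and 44.3 CPM in wild type. Mt2 had 50.2, 81.5, 29.6 and 5.01 CPM in the knock-in and 12.3, 228 and 14.0 CPM in wild type. Replicate 2 was the highest library of each genotype for both genes, and knock-in replicate 4 was the lowest of all. Within the knock-in the highest library had 25.9 times the lowest for Mt1 and 16.2 times for Mt2, and within wild type 10.5 and 18.5 times. The log2 differences were -0.50 with an SE of 1.07 and -1.03 (SE 1.09, edgeR adjusted p = 0.896 and 0.759), and without wild-type replicate 2 they were 1.53 and 1.66. Of the exonic bases of Mt2, 73.5% are shared with Gm45774 on the opposite strand, and no strand-marking step is given for the libraries.

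**Figure D4:**
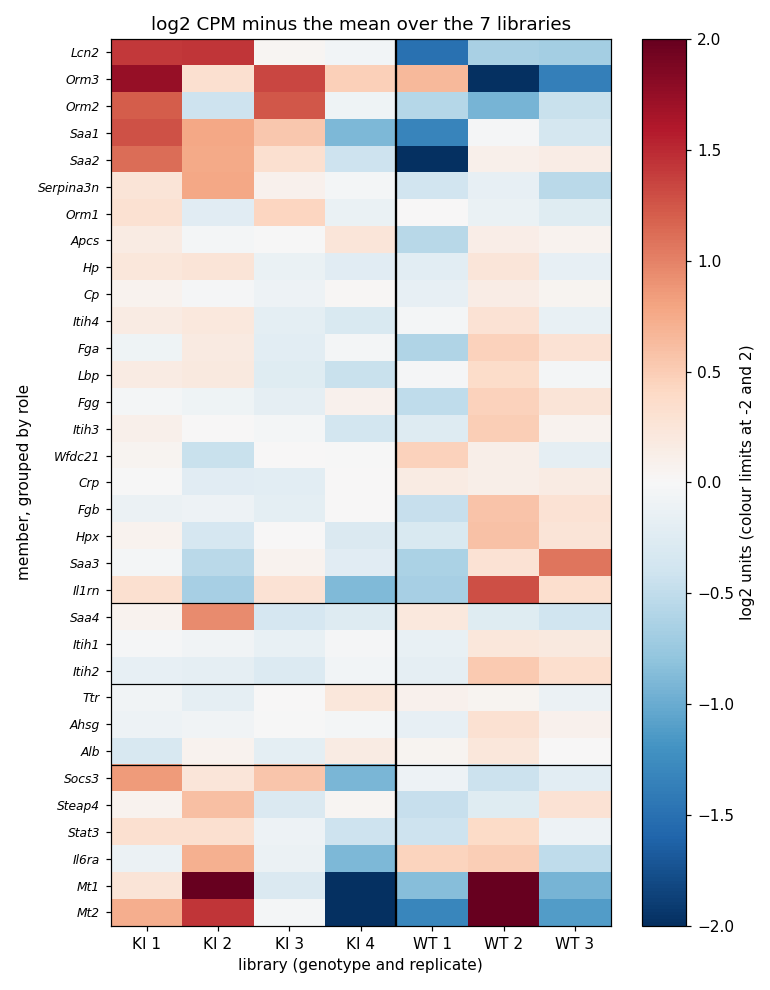
Log2 CPM of each member (rows, grouped by role) minus its mean over the 7 libraries, in each library (columns, knock-in left of the line, wild type right), with colours limited at -2 and 2. Lcn2, Saa1 and Saa2 are high in knock-in replicates 1 and 2, wild-type replicate 1 is the lowest library in 9 of 21 secreted positive members, and Mt1 and Mt2 vary most within both genotypes.

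Across the members, the spread between mice of 1 genotype was often large. The SD of log2 CPM exceeded the median of all tested genes, 0.177 in the knock-in and 0.179 in wild type, in 23 of 33 members in the knock-in and in 27 of 33 in wild type. Mt1 and Mt2 lay above the 99th percentile of all tested genes in both groups. Saa1 lay at percentile 98.25 in the knock-in and 93.05 in wild type. Crp lay at percentile 34.3 in the knock-in and 3.31 in wild type. Wild-type replicate 2 was the highest of the 7 libraries in 16 of 33 members, and wild-type replicate 1 was the lowest in 11 and knock-in replicate 4 in 10. Of the 6 intracellular and signalling members, 5 were lowest in knock-in replicate 4. How often each library was highest or lowest over all genes was not counted.

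The members together took 7.67, 9.38, 8.03 and 9.28% of all counts in the knock-in libraries and 8.28, 10.8 and 9.47% in the wild-type libraries. The 21 secreted positive members took 2.48 ± 0.146% in the knock-in and 2.75 ± 0.722% in wild type (SD, n = 4 and 3). Saa1 and Saa2 together took 0.0357 ± 0.0167% in the knock-in and 0.0178 ± 0.0084% in wild type. Fibrinogen mRNA took 1.22 ± 0.0972% in the knock-in and 1.41 ± 0.481% in wild type.

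Per transcript length, the members covered more than 4 orders of magnitude in the authors' deposited TPM, a measure scaled by transcript length and library. Alb was highest, with 39208 ± 7421 TPM in the knock-in and 44343 ± 4385 TPM in wild type (SD, n = 4 and 3). Ahsg and Ttr followed, with 8678 and 8417 TPM in the knock-in and 9788 and 8562 TPM in wild type. The fibrinogen chains, Hp and Hpx averaged 2102 to 4718 TPM in the knock-in and 2642 to 6175 TPM in wild type. Saa1 averaged 812 ± 395 TPM in the knock-in and 395 ± 173 TPM in wild type. At the low end of the wild-type order, Orm3 averaged 6.01 TPM in the knock-in and 1.91 TPM in wild type. Il1rn averaged 1.63 and 2.67 TPM, and Lcn2 12.2 and 3.69 TPM. In the knock-in Saa3 and Il6ra, at 7.16 and 11.9 TPM, also lay below Lcn2.

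**Figure D5:**
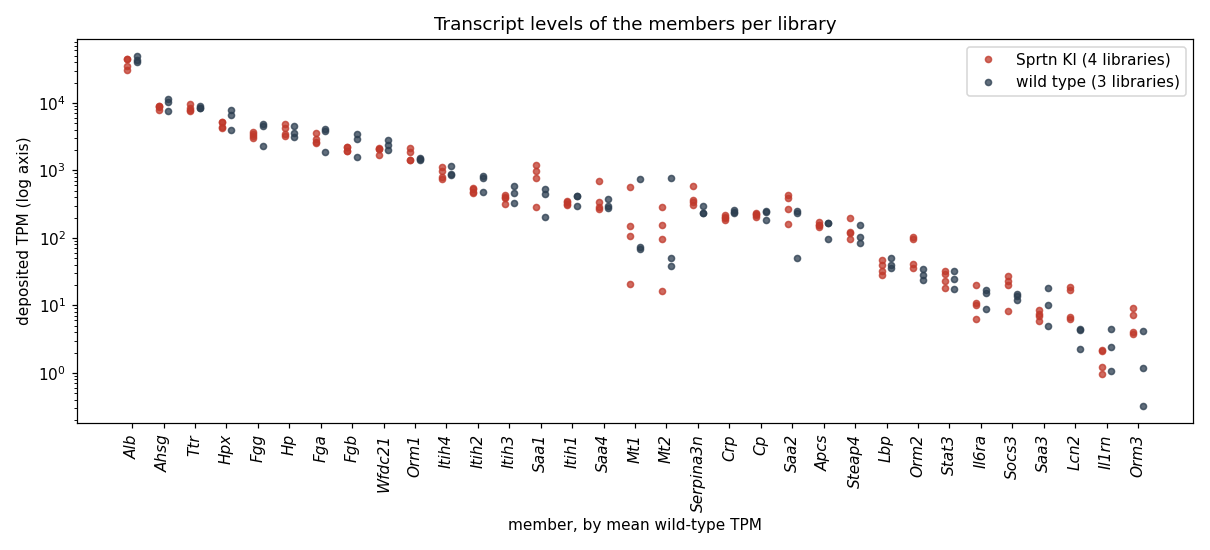
Deposited TPM (log axis) of the 33 members, 1 point per library, with 4 Sprtn knock-in libraries left and 3 wild-type libraries right for each gene, ordered by mean wild-type TPM. Alb is highest at about 39208 and 44343 TPM on average in the knock-in and wild type, and Orm3 and Il1rn are the lowest.

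Cytokine and signalling genes outside the set were read from lists chosen with earlier results of these data known. Of 27 genes of interleukin-6 and interleukin-1 signalling 24 were tested, and edgeR, DESeq2 and limma-voom called 0. At an unadjusted edgeR p under 0.05 there was 1 lower, Il1b, where 4.97% of all genes were. Il6 had 0, 0, 3 and 0 counts in the knock-in and 2, 1 and 3 counts in wild type, and Tnf had 2 to 5 counts in the knock-in and 4 to 15 in wild type, so that neither passed the edgeR filter on low counts. DESeq2 gave Tnf an adjusted p of 0.608. Il1b, the interleukin-1 beta gene, had 1.24, 1.10, 3.37 and 1.08 CPM in the knock-in and 3.33, 3.07 and 3.06 CPM in wild type. Knock-in replicate 3 lay just above the wild-type range and the other knock-in libraries below it, and the log2 difference was -0.90 (SE 0.39, edgeR adjusted p = 0.472). Osmr and Il1rap, receptor chains for oncostatin M and interleukin-1, had -0.53 and -0.15 (edgeR adjusted p = 0.509 and 0.567).

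Of 23 further positive acute phase genes 22 were tested, and 17 had negative log2 differences, with a median of -0.14. In edgeR 0 passed, and limma-voom called 0. At an unadjusted edgeR p under 0.05 there were 3 lower and 0 higher, where 4.97% and 5.6% of all genes were. All knock-in libraries lay below all wild-type libraries for 4, Serpina1a, Serpina1d, Cd14 and Agt, where 5.46% of all genes did so. DESeq2 called 2 lower, Cd14 and Agt, where it called 1.36% of its genes in either direction. Cd14, the lipopolysaccharide co-receptor of macrophages, had 1.77, 1.76, 2.33 and 1.44 CPM in the knock-in, against 3.45, 3.49 and 4.37 CPM in wild type. The log2 difference came to -1.05 (SE 0.19, edgeR adjusted p = 0.171, DESeq2 adjusted p = 0.00118). The summed macrophage markers given above were lower in most knock-in libraries too, and their part in the Cd14 value was not tested. Agt, which encodes angiotensinogen, averaged 400.1 ± 9.77 CPM in the knock-in and 488 ± 27.3 CPM in wild type (edgeR adjusted p = 0.311, DESeq2 adjusted p = 0.021). Nnmt, which methylates nicotinamide, had a log2 difference of -0.70 (edgeR adjusted p = 0.364). Hamp, the hepcidin gene and a target of interleukin-6, averaged 848 ± 221 CPM in the knock-in and 1288 ± 594 CPM in wild type, with a log2 difference of -0.60 (edgeR adjusted p = 0.516).

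Of 21 other negative acute phase and constitutive plasma protein genes, all tested, 19 had negative log2 differences, with a median of -0.14. Here edgeR, DESeq2 and limma-voom called 0. At an unadjusted edgeR p under 0.05 there was 1 lower, where 4.97% of all genes were. Serpina6, which encodes the corticosteroid-binding globulin, averaged 137 ± 17.0 CPM in the knock-in and 184 ± 28.6 CPM in wild type, with a log2 difference of -0.43 (SE 0.13, edgeR adjusted p = 0.346). Vtn and Azgp1, the genes of vitronectin and zinc-alpha-2-glycoprotein, had -0.25 and -0.21 (edgeR adjusted p = 0.482 and 0.502). Among 12 genes of the metal and glucocorticoid responses, edgeR, DESeq2 and limma-voom called 0, with 0 at an unadjusted p under 0.05. Slc30a1, a zinc exporter induced by zinc, averaged 51.1 ± 8.75 CPM in the knock-in and 60.8 ± 11.3 CPM in wild type (edgeR adjusted p = 0.61). Tat and Zbtb16, both induced by glucocorticoids, had log2 differences of -0.33 and -0.42 (edgeR adjusted p = 0.738 and 0.771).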

How the data were processed

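RNA of whole liver was sequenced from 4 Sprtn knock-in and 3 wild-type mice, 1 library each, with poly(A) selection per the labels' protocols. The authors placed reads on mm10, per the submitters' processing notes. The sources used here give no mapper, counter or annotation. The authors deposited whole-number counts per gene, TPM, and their own log2 differences and corrected p-values. A further 14 per-sample columns were not used. Nothing beyond the labels' separate mouse numbers describes the replicates, so p-values measure the spread between these samples.

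Counts were tested with edgeR 4.0.16 (quasi-likelihood test, TMM scaling, filterByExpr; R 4.3.3) over 13989 genes, with Benjamini-Hochberg adjustment over all of them and a threshold of 0.05. Of 51826 genes 21027 had a count. Alternatives were DESeq2 1.42.0, limma-voom (limma 3.58.1), other scalings and filters, blocking on replicate number, and each library left out in turn. The code was tested on simulated data. TPM served for levels between genes only. Total counts, 36928472 to 46755357 per library, limit the precision of genes with few counts. No 2 libraries of a group agreed within sampling noise (chi-square per degree of freedom of 36.4 or more).

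The members and gene lists were chosen with earlier results of these data known. Named genes were the 10 members with the smallest p, the negative acute phase genes, the Saa, Orm and pentraxin genes and signalling members, and from each further list the 3 with the smallest p plus Il6, Il1b, Tnf and Hamp; other members are given because they belong to the set. The NF-kappaB motif and the metallothionein promoters were added after values were seen. Promoters came from RefSeq (GRCm38.p6), and transcripts and exons from GENCODE M21, in which all 33 members were found and 29 had the same start and end.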

Additional observations from a re-analysis of the deposited data

Results flagged for a closer look

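In 54 sets of 4 knock-in values, 2 held a library far from the others by Dixon's test at 95%, and chance gives about 1 in 20. Wfdc21 had 349.9 CPM in knock-in replicate 2, against 469 to 490.4 CPM in the other knock-in libraries, a gap of 0.850 of the group's range. Il1b had 3.37 CPM in knock-in replicate 3, against 1.08 to 1.24 CPM in the others, a gap of 0.933 of the range. Wild type, with 3 libraries, was not tested this way.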

How the results depend on the processing

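Over all genes, edgeR made 4 higher and 1 lower calls. Library totals without a composition factor gave 2 lower, limma-voom 2 lower, no expression filter 13 higher and 5 lower, and DESeq2 135 higher and 73 lower. Leaving out 1 library gave 2 to 64 higher and 1 to 34 lower, with 64 and 34 without wild-type replicate 1, 2 and 2 without wild-type replicate 2, and 2 higher without knock-in replicate 1 or 4. Replicate numbers did not pair the samples (correlations of -0.061, 0.005 and -0.019 between same-numbered libraries), and the fit with the replicate block, on 6 libraries, gave 0 higher and 0 lower. Of the members, edgeR called 0 under every edgeR setting run, limma-voom 0, and DESeq2 1 higher, Lcn2. The direction held under all alternatives in 20 of 33 members. The replicate block turned the log2 difference to 0.026 in Itih4, 0.015 in Il6ra, 0.44 in Mt1 and 0.58 in Mt2. Leaving out 1 library gave ranges that cross 0 in 13 members, none of them called: Hp -0.0094 to 0.24, Fga -0.40 to 0.062, Fgg -0.42 to 0.020, Apcs -0.011 to 0.30, Cp -0.11 to 0.044, Itih3 -0.36 to 0.017, Itih4 -0.15 to 0.078, Il6ra -0.54 to 0.0009, Stat3 -0.098 to 0.31, Mt1 -1.60 to 1.53, Mt2 -1.58 to 1.66, Ttr -0.087 to 0.053 and Saa4 -0.042 to 0.52. The cause was not tested. Depth limits genes such as Orm3, with 5 counts in wild-type replicate 2.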
